A study of Mus musculus with 12 samples.

Results

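Described here are 38 genes of mitosis and of the spindle checkpoint in mouse mammary tumours, which were listed by name and looked up by symbol among the 46078 genes of a table of read counts. All 38 were found, and all 38 were among the 18252 genes with enough counts to be tested. The tumours grew from the 4T1 line, a metastatic mouse mammary carcinoma line, which carried firefly luciferase in every group. For each mouse of the BALB/c strain, 300000 such cells were placed in mammary fat pad number 4. Treatment started on day 14 and ran for 2 weeks, and tumours were collected on day 28. The MBQ-167 group received 100 mg/kg of MBQ-167, an inhibitor of the GTPases Rac and Cdc42, 5 times a week. The paclitaxel group received 5 mg/kg of paclitaxel, which binds and stabilises microtubules, 1 time a week. The combination group received both drugs at these doses, and the vehicle group received neither. Each group holds 3 libraries, and the labels give the genotype WT for all 12. The labels mention 2 occasions of injection and do not tie libraries to them, and effects of the occasion cannot be told apart from those of treatment. The sources used here give neither the makeup of the vehicle nor the age of the mice, nor how long after the last dose tumours were taken. The labels call the 3 libraries of a group biological replicates without stating that each is 1 mouse, so p-values refer only to variation among these libraries, which may be technical.

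At the entry into mitosis, cyclin B binds Cdk1, and the resulting kinase, together with the Aurora and Polo-like kinases, drives chromosome condensation and the building of the spindle. Kinetochores are protein assemblies on each centromere that catch spindle microtubules. Where a kinetochore holds no microtubule, the spindle checkpoint proteins keep Cdc20 from switching on the anaphase-promoting complex, and the chromatids stay together. Once all are attached, this complex marks cyclin B and securin for destruction, separase cuts cohesin, and the cell divides. Most of these genes are transcribed in the G2 and M phases, so their RNA in a tumour is widely used as a measure of dividing cells. Paclitaxel is known from cultured cells to hold cells in mitosis through this checkpoint. In a sample of a whole tumour, fewer dividing cells and less RNA per dividing cell cannot be told apart.

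Total counts ran from 11540557 to 17001562 per library, and 52.7% to 71.5% of them fell in protein-coding genes. Genes on chromosome 17 that resemble ribosomal RNA took 30.1% to 36.8% of counts in MBQ-167 libraries and 17.1% to 32.1% in paclitaxel libraries. They took 19.9% to 37.4% in combination libraries and 31.6% to 37.5% in vehicle libraries, and the cause of this spread was not tested. Epcam and Krt8, which mark epithelial cells, ran from 32.1 to 346.5 and from 277 to 694 CPM (counts scaled to a common library total) over the 12 libraries, so epithelial RNA was present in each. The summed level of 13 epithelial markers was 1116 to 1687 CPM in MBQ-167 tumours, 1260 to 1402 CPM in paclitaxel tumours, 1037 to 1861 CPM in combination tumours and 1024 to 3220 CPM in vehicle tumours. Of these markers 12 of 13 were below vehicle with paclitaxel, and Krt8 passed the test used below and fell, at -0.80 ± 0.18 on the log2 scale (adjusted p = 0.0236 by edgeR), while Krt8 and Krt18 fell in the mean of the drug groups. Their median log2 fold change was -0.76 with MBQ-167, -0.49 with paclitaxel and -0.31 with the combination, and the part of these markers in the results was not tested. The markers of neutrophils differed between the groups. Their summed level was 427 to 499 CPM in MBQ-167 tumours, 315 to 418 CPM in paclitaxel tumours, 332 to 385 CPM in combination tumours and 492 to 1939 CPM in vehicle tumours, where vehicle 3 held the highest sum. Of 15 neutrophil markers, 0, 12 and 10 were lower at the threshold used below in MBQ-167, paclitaxel and combination tumours against vehicle, and each marker had counts in every group. Summed markers of erythroid cells were at 44.7 to 108 CPM in MBQ-167 tumours, 14.8 to 107 CPM in paclitaxel tumours, 32.9 to 68.6 CPM in combination tumours and 258 to 266 CPM in vehicle tumours, and their part in the results was not tested. The balance between GC-rich and GC-poor transcripts also moved with the groups. Across genes, the Spearman correlation between the GC content of a transcript and its level in a library, relative to its mean, was 0.026 to 0.18 with MBQ-167, -0.33 to -0.16 with paclitaxel and -0.23 to -0.042 with the combination, against 0.14 to 0.30 in vehicle libraries.

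Against vehicle, the mitotic genes as a group stayed close to their vehicle level under every treatment, and 2 of them rose. Knl1, a large scaffold of the outer kinetochore on which the checkpoint proteins gather, rose by 1.75-fold in paclitaxel tumours and 1.55-fold in combination tumours. Top2a, the topoisomerase that untangles DNA before chromatids part, rose by 1.41-fold in paclitaxel tumours. None of these calls held in a fit with each library corrected for GC content, described below. There the log2 fold changes were 0.19 and 0.12 for Knl1 and 0.26 for Top2a. No member fell at the threshold, an adjusted p under 0.05 by edgeR's quasi-likelihood test with Benjamini-Hochberg adjustment over all 18252 genes. The median log2 fold change over the 38 members was -0.056 with MBQ-167, -0.0014 with paclitaxel and -0.0030 with the combination, each against vehicle, and over all genes tested it was 0.0007, -0.0018 and 0.0009.

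In MBQ-167 tumours, 0 of 38 members passed the test against vehicle, where 0.0931% of all genes did (0.0164% higher and 0.0767% lower). By DESeq2 and limma voom the count of members was also 0. At an unadjusted p under 0.05, 0 members were higher and 2, Cdk1 and Cdc20, were lower, where 5.82% of all genes were higher and 7.05% lower. In paclitaxel tumours, 2 of 38 members rose and 0 fell, where 3.17% of all genes rose and 2.49% fell (5.66% in all). Unadjusted, 8 members were higher and 4 lower, where 11.4% and 11.2% of all genes were. In combination tumours, 1 of 38 rose and 0 fell, where 1.03% of all genes rose and 0.811% fell (1.84% in all), and unadjusted the members' counts were 4 and 3, where those of all genes were 9.54% and 8.81%. The libraries of the groups did not overlap for 2 members higher and 5 lower with MBQ-167 (8.54% and 8.79% of all genes), 8 and 4 with paclitaxel (13.2% and 12.1%) and 5 and 3 with the combination (11.0% and 9.86%). The members' shares of calls were near those of all genes in each comparison. All 3 comparisons share the vehicle libraries.

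The 95% intervals of this fit cover only the variation among libraries and do not bound differences of other kinds. For Knl1 with paclitaxel the interval was 0.48 to 1.13. In a fit with each library corrected for GC content, described below, its value was 0.19. The 95% interval of the log2 fold change lay within a 2-fold change in either direction for 38 members with MBQ-167, 36 with paclitaxel and 37 with the combination. It lay within a 1.5-fold change for 30, 23 and 27 of them. Plk4, the kinase that starts the copying of centrioles and the member with the fewest counts, had the widest intervals.

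**Figure D1:**
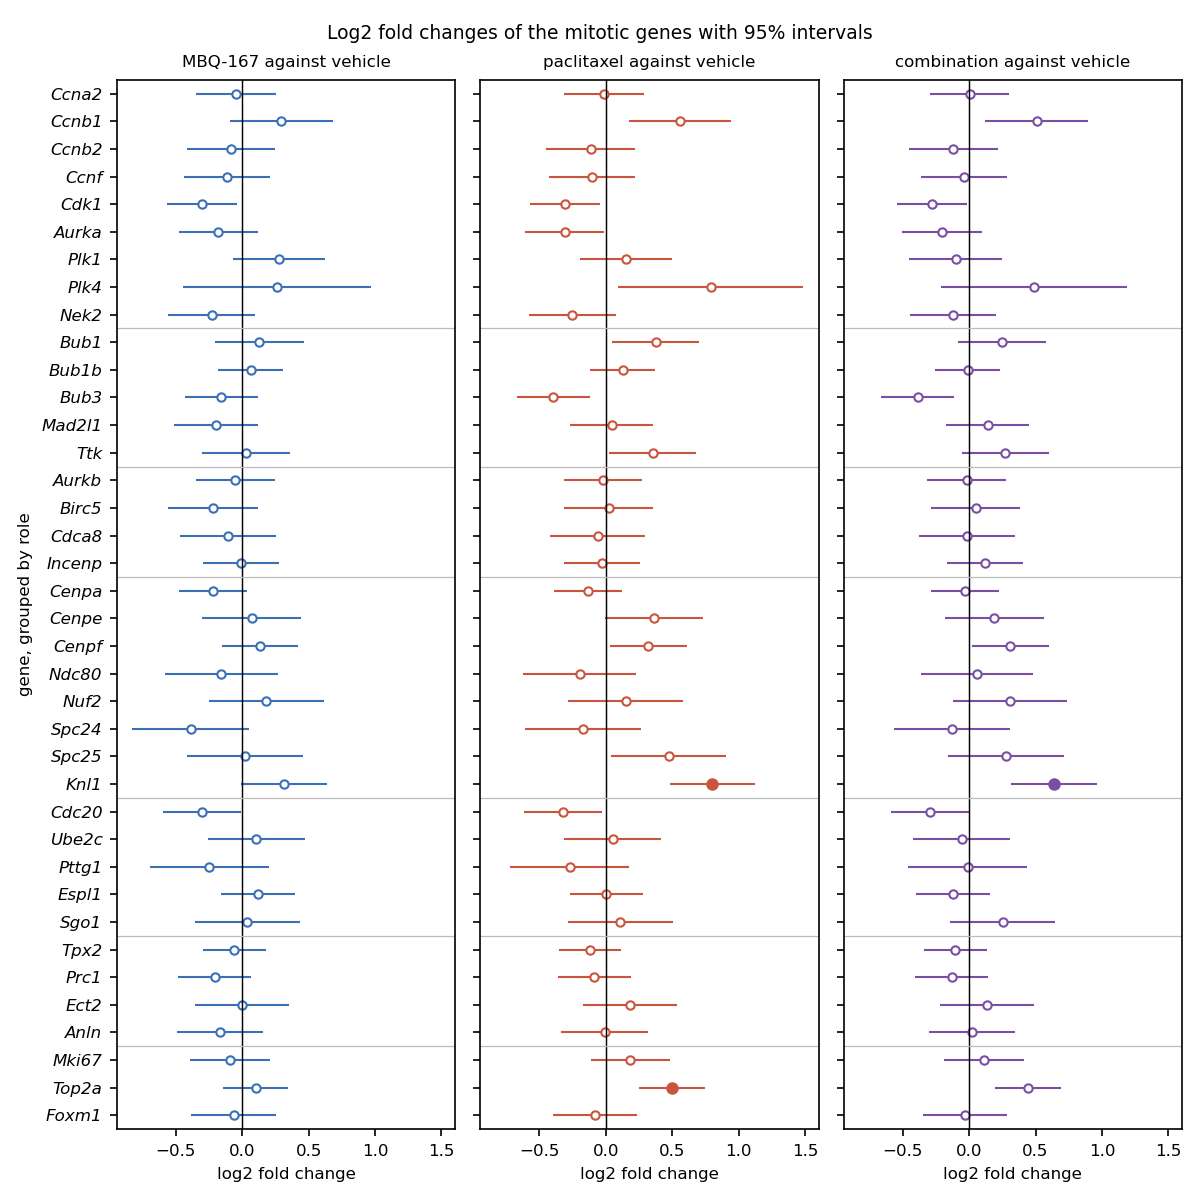
Log2 fold change of each of the 38 genes in MBQ-167, paclitaxel and combination tumours against vehicle. Points are estimates of the edgeR fit, lines are 95% intervals, filled points passed the test, and grey lines part the roles. Most intervals cross 0, and only Knl1 and Top2a in paclitaxel tumours and Knl1 in combination tumours are filled.

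Knl1 spans chr2:119047119-119105501 on the plus strand of GRCm38. It had 32.2, 48.96 and 44.8 CPM in MBQ-167 tumours, 58.3, 61.8 and 57.2 CPM in paclitaxel tumours and 51.03, 57.1 and 49.7 CPM in combination tumours, against 31.7, 39.4 and 30.5 CPM in vehicle tumours. Every paclitaxel and combination library was above every vehicle library, and the MBQ-167 libraries overlapped vehicle because the first of them was near the vehicle level. The log2 fold change was 0.80 ± 0.15 in paclitaxel tumours (adjusted p = 0.0107), 0.64 ± 0.15 in combination tumours (adjusted p = 0.0483) and 0.31 ± 0.15 in MBQ-167 tumours (adjusted p = 0.404). Leaving out any 1 of the 6 paclitaxel and vehicle libraries kept the paclitaxel call, with log2 fold changes of 0.73 to 0.92. The combination call held only without vehicle 2 and was lost without any 1 of the other 5 combination and vehicle libraries, with adjusted p up to 0.163. Knl1 has the lowest GC content of the 38 transcripts, 37.7%. With each library corrected for GC content, its log2 fold change was 0.19 in paclitaxel (adjusted p = 0.520) and 0.12 in combination tumours (adjusted p = 0.749). With the mean log2 CPM of the neutrophil markers in each library as a covariate, it was 0.64 (adjusted p = 0.211) and 0.49 (adjusted p = 0.337). Neither call held in these fits. The summed neutrophil markers were higher in every vehicle library (492 to 1939 CPM) than in paclitaxel (315 to 418 CPM) or combination libraries (332 to 385 CPM). In the covariate fit, neutrophil level and treatment therefore cannot be told apart.

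Top2a lies on the minus strand at chr11:98992943-99024189 and had the highest counts of the set. Its libraries held 283, 327 and 308 CPM in MBQ-167 tumours, 389, 439 and 383 CPM in paclitaxel tumours and 397, 358 and 407 CPM in combination tumours, against 295, 253 and 308 CPM in vehicle tumours. The paclitaxel and combination libraries all lay above the vehicle libraries, while MBQ-167 and vehicle overlapped. On the log2 scale the difference was 0.50 ± 0.12 in paclitaxel (adjusted p = 0.0244), 0.44 ± 0.12 in combination (adjusted p = 0.0637) and 0.10 ± 0.12 in MBQ-167 tumours (adjusted p = 0.773). The paclitaxel call was lost without vehicle 1, vehicle 2, paclitaxel 1 or paclitaxel 2, with log2 fold changes of 0.42 to 0.56 and adjusted p up to 0.102. With the GC correction the paclitaxel difference was 0.26 (adjusted p = 0.235), and with the neutrophil covariate it was 0.69 (adjusted p = 0.0955). DESeq2 called Top2a in combination tumours as well (adjusted p = 0.00997).

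**Figure D2:**
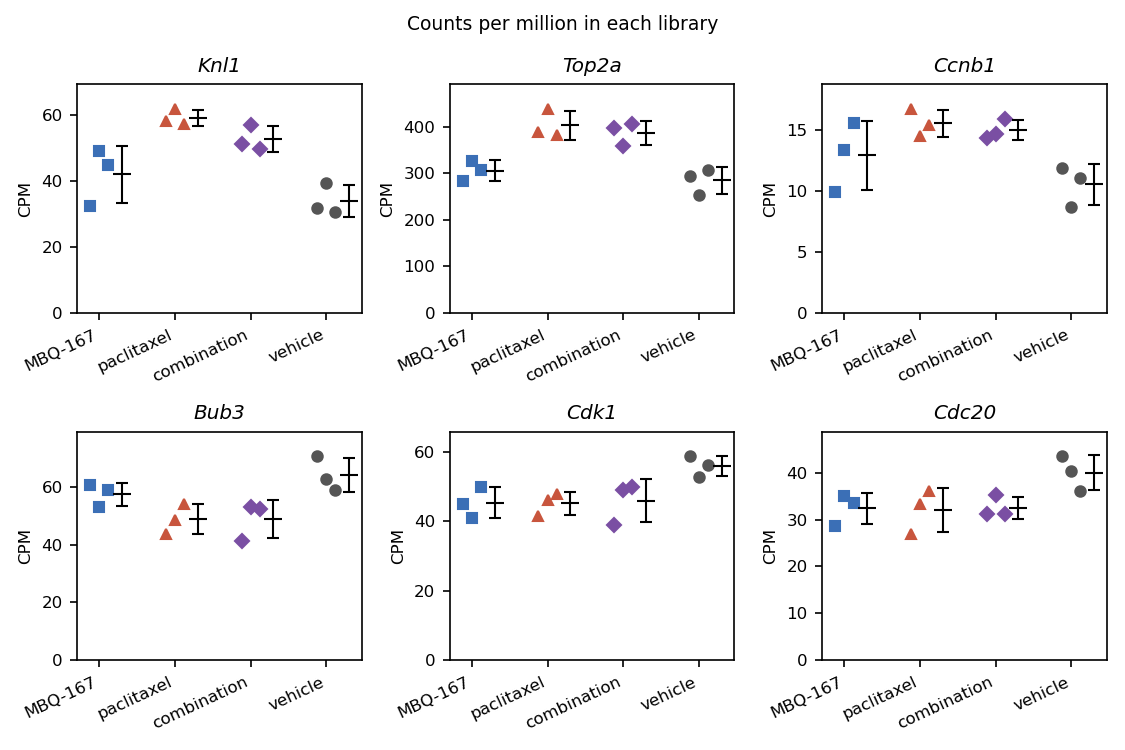
CPM of Knl1, Top2a, Ccnb1, Bub3, Cdk1 and Cdc20 in each library, by group, with the mean and SD (n = 3) beside the points. The paclitaxel and combination points of Knl1, Top2a and Ccnb1 lie above all vehicle points, and those of Bub3 and Cdk1 lie below them.

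The promoters of these genes are known to carry CCAAT boxes, which the factor NF-Y binds, and the cell cycle element TTTGAA or TTCGAA, through which MuvB complexes act. They are shown for the 5 members with the smallest p against vehicle, as the 250 bases before and 50 after the transcription start that RefSeq gives on GRCm38.p6. Capitals mark every match of these motifs on either strand. A CCAAT box on the opposite strand reads ATTGG in the window, an element of the first kind reads TTCAAA there, and one of the second kind reads the same on both strands. The windows run 5′ to 3′ on the gene's strand at chr2:119046869-119047168 (plus) for Knl1, chr11:99024140-99024439 (minus) for Top2a, chr13:100786437-100786736 (minus) for Ccnb1, chr7:131560120-131560419 (plus) for Bub3 and chr10:69352863-69353162 (minus) for Cdk1.
Knl1: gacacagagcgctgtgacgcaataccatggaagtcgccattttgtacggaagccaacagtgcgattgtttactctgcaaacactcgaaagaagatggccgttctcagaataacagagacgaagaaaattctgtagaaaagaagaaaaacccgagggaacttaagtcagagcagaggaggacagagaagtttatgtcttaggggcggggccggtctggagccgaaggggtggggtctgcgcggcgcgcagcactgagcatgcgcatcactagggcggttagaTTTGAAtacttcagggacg
Top2a: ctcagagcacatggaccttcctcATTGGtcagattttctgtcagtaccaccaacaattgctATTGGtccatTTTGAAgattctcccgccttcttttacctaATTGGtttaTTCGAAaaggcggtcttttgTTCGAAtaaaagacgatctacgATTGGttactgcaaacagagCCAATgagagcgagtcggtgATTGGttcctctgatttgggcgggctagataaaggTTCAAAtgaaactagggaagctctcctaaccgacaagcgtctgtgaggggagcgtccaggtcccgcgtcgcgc
Ccnb1: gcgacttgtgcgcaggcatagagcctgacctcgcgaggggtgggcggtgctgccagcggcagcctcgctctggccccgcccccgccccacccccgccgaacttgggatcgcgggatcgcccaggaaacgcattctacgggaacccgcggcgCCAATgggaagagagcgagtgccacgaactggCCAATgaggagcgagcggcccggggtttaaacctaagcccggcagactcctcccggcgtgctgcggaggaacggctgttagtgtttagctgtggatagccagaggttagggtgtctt
Bub3: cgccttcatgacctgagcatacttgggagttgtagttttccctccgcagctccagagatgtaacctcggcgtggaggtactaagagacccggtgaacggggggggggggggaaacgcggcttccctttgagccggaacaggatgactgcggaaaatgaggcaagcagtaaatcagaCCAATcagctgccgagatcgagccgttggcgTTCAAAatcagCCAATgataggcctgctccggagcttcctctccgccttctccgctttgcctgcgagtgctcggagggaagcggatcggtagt
Cdk1: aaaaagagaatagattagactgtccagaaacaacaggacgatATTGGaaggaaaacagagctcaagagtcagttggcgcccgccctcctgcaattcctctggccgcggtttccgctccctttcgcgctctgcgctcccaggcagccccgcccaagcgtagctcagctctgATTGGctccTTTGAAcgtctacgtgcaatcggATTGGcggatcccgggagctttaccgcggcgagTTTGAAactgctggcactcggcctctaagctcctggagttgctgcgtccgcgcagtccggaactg
The windows of the pair of genes that rose differ: that of Knl1 held 0 CCAAT boxes and 1 TTTGAA, and that of Top2a held 6 CCAAT boxes, 2 TTTGAA and 2 TTCGAA. Bub3, with 2 CCAAT boxes and 1 TTTGAA, and Cdk1, with 3 and 2, were among the members with the lowest log2 fold changes. Windows were matched for 32 of the 38 members, and those of Tpx2, Foxm1, Aurkb, Spc24, Ccna2 and Incenp were not in the table. Of the 32, 24 (75%) held at least 1 CCAAT box, where 37.9% of all 27025 promoters of this length did, and 18 (56.2%) held 2 or more, where 12.2% did. The element TTTGAA stood in 22 windows (68.8%), where 18.1% of all promoters hold it, and TTCGAA in 4 (12.5%), where 1.6% hold it. Both a CCAAT box and 1 of these elements occurred in 21 windows (65.6%), where 7.7% of all promoters hold both. These are matches of letters within the window and show no binding.

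Among the cyclins, Cdk1 and the mitotic kinases, 0 of 9 passed the test in any comparison with vehicle. Cyclin B1 and its partner Cdk1 stood on opposite sides of their vehicle level. Ccnb1, which encodes cyclin B1, had 9.96, 13.4 and 15.6 CPM in MBQ-167 tumours, 16.8, 14.5 and 15.5 CPM in paclitaxel tumours and 14.4, 14.7 and 15.97 CPM in combination tumours, against 11.9, 8.70 and 11.1 CPM in vehicle tumours. Paclitaxel and combination libraries all exceeded vehicle, with log2 fold changes of 0.56 ± 0.18 (adjusted p = 0.0816) and 0.51 ± 0.18 (adjusted p = 0.155), which missed the threshold. DESeq2 called the paclitaxel difference at an adjusted p of 0.0491. With the GC correction the values of Ccnb1 were 0.37 with paclitaxel and 0.35 with the combination (adjusted p = 0.296 and 0.372 by edgeR). The kinase itself, Cdk1, had 45.1, 40.9 and 49.9 CPM in MBQ-167 tumours, 41.5, 46.2 and 47.9 CPM in paclitaxel tumours and 38.9, 49 and 49.95 CPM in combination tumours, against 58.7, 52.8 and 56.1 CPM in vehicle tumours. All 9 libraries of treated tumours lay below all 3 vehicle libraries, which held for 3.95% of all genes. The log2 fold changes were close in size, -0.30 ± 0.12 under MBQ-167 (adjusted p = 0.324), -0.31 ± 0.12 under paclitaxel (adjusted p = 0.157) and -0.28 ± 0.12 under the combination (adjusted p = 0.248), and none passed. With the GC correction they were -0.34, -0.35 and -0.32.

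Aurora A, encoded by Aurka, matures the spindle poles. It had 17.4, 20.9 and 20.7 CPM in MBQ-167 tumours, 16.7, 19.1 and 18.2 CPM in paclitaxel tumours and 18.7, 19.3 and 20.1 CPM in combination tumours, against 25.8, 21.8 and 19.3 CPM in vehicle tumours. Only the paclitaxel libraries lay wholly below vehicle, at -0.31 ± 0.14 on the log2 scale (adjusted p = 0.209). Plk1, the Polo-like kinase that acts from mitotic entry to division, had 22.9, 23.9 and 27.3 CPM in MBQ-167 tumours, 19.8, 21.8 and 26.4 CPM in paclitaxel tumours and 18.1, 15.7 and 23.1 CPM in combination tumours, against 21.9, 20.1 and 19.2 CPM in vehicle tumours. The MBQ-167 libraries all stood above vehicle, with a log2 fold change of 0.28 ± 0.16 (adjusted p = 0.501), and the combination libraries held both the lowest value of the gene and a value above all of vehicle. The other members of this role, Ccna2, Ccnb2, Ccnf, Plk4 and Nek2, had log2 fold changes between -0.25 and 0.79 against vehicle. Plk4, at 1.89 to 5.06 CPM, had the largest of these, 0.79 ± 0.32 in paclitaxel tumours (adjusted p = 0.164). Ccnb2, cyclin B2, had 23.0 to 26.2 CPM in paclitaxel tumours, just below the 26.4 to 26.5 CPM of vehicle tumours, and its combination libraries spread from 19.2 to 27.8 CPM.

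The 5 spindle checkpoint genes did not share a direction in paclitaxel tumours, and 0 passed the test. Bub3, which carries Bub1 and BubR1 to the kinetochore, had 60.5, 53 and 58.8 CPM in MBQ-167 tumours, 43.7, 48.6 and 54.1 CPM in paclitaxel tumours and 41.3, 53.03 and 52.5 CPM in combination tumours, against 70.6, 62.8 and 58.8 CPM in vehicle tumours. Paclitaxel and combination libraries lay wholly below vehicle, with log2 fold changes of -0.39 ± 0.13 (adjusted p = 0.0853) and -0.39 ± 0.13 (adjusted p = 0.132). The span of Bub3 overlaps that of Fgfr2 on the opposite strand, at 191 CPM. Since the strandedness of the counting is not given, reads from the shared stretch cannot be assigned, and their number was not measured. Bub1, a checkpoint kinase, had 17.6, 24.3 and 24.1 CPM in MBQ-167 tumours, 27.04, 26.4 and 24.8 CPM in paclitaxel tumours and 20.5, 27.8 and 23.3 CPM in combination tumours, against 21.5, 18.3 and 20.5 CPM in vehicle tumours. Its paclitaxel libraries all exceeded vehicle, at 0.38 ± 0.15 on the log2 scale (adjusted p = 0.164). Ttk, the kinase Mps1 that starts checkpoint signalling, had 11.9, 16.3 and 12.5 CPM in MBQ-167 tumours, 17.8, 15.4 and 17.6 CPM in paclitaxel tumours and 15.2, 16.6 and 16.2 CPM in combination tumours, against 12.3, 14.7 and 12.8 CPM in vehicle tumours. The log2 fold changes of Ttk were 0.35 ± 0.15 with paclitaxel (adjusted p = 0.190) and 0.27 ± 0.15 with the combination (adjusted p = 0.372), with no overlap between either group and vehicle. Transcripts of both kinases are GC-poor, and with the GC correction the paclitaxel values were 0.0012 for Bub1 and 0.10 for Ttk, against -0.44 for Bub3.

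Mad2l1 encodes Mad2, the protein that binds Cdc20 directly. It had 13.5, 14.01 and 16.4 CPM in MBQ-167 tumours, 17.4, 19.5 and 15.2 CPM in paclitaxel tumours and 19.2, 17.2 and 19.1 CPM in combination tumours, against 18.4, 15.2 and 16.8 CPM in vehicle tumours, and each treated group overlapped vehicle. Bub1b, which encodes BubR1 of the same inhibitory complex, had 31.1, 29.9 and 30.9 CPM in MBQ-167 tumours, 29.8, 32.2 and 34.1 CPM in paclitaxel tumours and 26.2, 31.1 and 29.8 CPM in combination tumours, against 30.2, 30.6 and 27.2 CPM in vehicle tumours. Its log2 fold changes were 0.065 ± 0.11, 0.13 ± 0.11 and -0.011 ± 0.11, and all 3 groups overlapped vehicle. Those of Mad2l1 were -0.20 with MBQ-167, 0.046 with paclitaxel and 0.14 with the combination. With the GC correction the values of Mad2l1 were -0.40, -0.40 and -0.23 (adjusted p = 0.274, 0.173 and 0.499 by edgeR).

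The genes of the chromosomal passenger complex, whose kinase corrects faulty attachments, stayed near their vehicle level. Of its 4 genes 0 passed, and their libraries overlapped vehicle in all 3 comparisons. Aurkb, the kinase, had 26, 29.03 and 25.8 CPM in MBQ-167 tumours, 23.95, 31.4 and 27.3 CPM in paclitaxel tumours and 26.8, 29.7 and 26.2 CPM in combination tumours, against 32.1, 26.7 and 24.98 CPM in vehicle tumours. Birc5 encodes survivin, which places the complex on chromatin. It had 18.1, 23.97 and 22.3 CPM in MBQ-167 tumours, 22.9, 29.3 and 24.4 CPM in paclitaxel tumours and 22.6, 24.5 and 30.5 CPM in combination tumours, against 26.9, 25.8 and 22.5 CPM in vehicle tumours. Incenp, the scaffold that activates Aurora B, had 32.4, 36.8 and 42 CPM in MBQ-167 tumours, 36.2, 36.6 and 36.7 CPM in paclitaxel tumours and 38.8, 38.8 and 43.9 CPM in combination tumours, against 33.9, 33.8 and 44.1 CPM in vehicle tumours. Across the 4 genes, Cdca8 (borealin) included, the log2 fold changes ran from -0.22 to 0.12, and the 95% interval of each lay within a 1.5-fold change in every comparison with vehicle.

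The 8 centromere and kinetochore genes had the highest median of the roles under paclitaxel, a log2 fold change of 0.24, and 1 of them, Knl1, passed. With the combination the median was 0.23 and with MBQ-167 it was 0.045. With the GC correction the medians were 0.0057 with the combination, -0.078 with MBQ-167 and 0.0002 with paclitaxel, the last below the 0.10 of the proliferation markers and Foxm1. Cenpa, the histone that marks the centromere, had 41.6, 46.3 and 47.9 CPM in MBQ-167 tumours, 42.3, 55.4 and 47.1 CPM in paclitaxel tumours and 48.5, 53.7 and 52.5 CPM in combination tumours, against 50.03, 51 and 57.2 CPM in vehicle tumours. The MBQ-167 libraries were all below vehicle, at -0.22 ± 0.12 on the log2 scale (adjusted p = 0.466), and the other groups overlapped it. The Ndc80 complex, which grips the microtubule, has 4 subunits, and their values differed in sign. Ndc80 itself had 10.96, 14.1 and 11.6 CPM in MBQ-167 tumours, 13.7, 10.98 and 10.9 CPM in paclitaxel tumours and 10.9, 18.8 and 12.9 CPM in combination tumours, against 13.9, 13.1 and 13.8 CPM in vehicle tumours. Spc24, which anchors the complex at its inner end, had 6.66, 7.58 and 8.95 CPM in MBQ-167 tumours, 7.18, 10.98 and 8.96 CPM in paclitaxel tumours and 11.3, 8.61 and 8.12 CPM in combination tumours, against 9.30, 10.4 and 10.7 CPM in vehicle tumours. Its log2 fold change with MBQ-167 was -0.39 ± 0.20 (adjusted p = 0.451), without overlap and with 93 to 159 reads a library. Under paclitaxel, the log2 fold changes were -0.20 for Ndc80, -0.17 for Spc24, 0.15 for Nuf2 and 0.48 for Spc25, and none of the 4 passed. Cenpe, the kinetochore motor, and Cenpf, which binds microtubules and nuclear pores, had paclitaxel values of 0.36 ± 0.17 and 0.32 ± 0.13 (adjusted p = 0.227 and 0.172), with no overlap between paclitaxel and vehicle libraries. With the GC correction these were 0.11 for Cenpe and 0.085 for Cenpf.

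Of the 5 genes of anaphase and chromatid separation, 0 passed. Cdc20, the activator of the anaphase-promoting complex that the checkpoint holds back, had 28.6, 35.02 and 33.5 CPM in MBQ-167 tumours, 26.9, 33.3 and 36.1 CPM in paclitaxel tumours and 31.1, 35.2 and 31.3 CPM in combination tumours, against 43.5, 40.3 and 36.1 CPM in vehicle tumours. The highest paclitaxel library just reached the lowest vehicle library, and the other drug groups lay below vehicle. As with Cdk1, the log2 fold changes were alike in size, -0.30 ± 0.14, -0.32 ± 0.14 and -0.30 ± 0.14 (adjusted p = 0.368, 0.183 and 0.266). Elovl1, on the opposite strand at 18.1 CPM, overlaps Cdc20. Pttg1 encodes securin, the inhibitor of separase. It had 11.96, 9.82 and 8.46 CPM in MBQ-167 tumours, 9.11, 10.5 and 10.2 CPM in paclitaxel tumours and 12.6, 9.79 and 13.2 CPM in combination tumours, against 14.9, 8.86 and 12.2 CPM in vehicle tumours. Vehicle libraries spread more widely than any treated group and spanned most of the range. Separase, encoded by Espl1, had 26.6, 27.1 and 26.6 CPM in MBQ-167 tumours, 23.8, 27.2 and 23.3 CPM in paclitaxel tumours and 20.3, 25.9 and 21.7 CPM in combination tumours, against 26.2, 22.2 and 25.5 CPM in vehicle tumours. Ube2c, the ubiquitin-conjugating enzyme of the complex, and Sgo1, the protector of centromeric cohesin, had log2 fold changes between -0.057 and 0.25.

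Of the 4 genes of the spindle and of cytokinesis 0 passed, and neither did the proliferation marker Mki67 nor the transcription factor Foxm1. Tpx2, which activates Aurora A on spindle microtubules, had 38.8, 37.98 and 39.2 CPM in MBQ-167 tumours, 36.2, 35.5 and 39.6 CPM in paclitaxel tumours and 33.2, 38.3 and 40.9 CPM in combination tumours, against 42.4, 38.7 and 39.8 CPM in vehicle tumours. Prc1, which bundles the microtubules of the midzone, had 37.2, 41.7 and 41.2 CPM in MBQ-167 tumours, 46.9, 40.7 and 43.01 CPM in paclitaxel tumours and 34.6, 45.9 and 46.1 CPM in combination tumours, against 47.99, 42.1 and 48.7 CPM in vehicle tumours. Its MBQ-167 libraries lay just below vehicle, at -0.21 ± 0.13 on the log2 scale (adjusted p = 0.526). Ect2, the exchange factor that switches on RhoA for the contractile ring, and Anln, its scaffold anillin, ranged from -0.17 to 0.18. Ki-67, encoded by Mki67, coats mitotic chromosomes and is the usual marker of dividing tumour cells. It had 185, 198 and 200.2 CPM in MBQ-167 tumours, 239.6, 215 and 252 CPM in paclitaxel tumours and 178, 244 and 248 CPM in combination tumours, against 202, 181 and 237 CPM in vehicle tumours. All groups overlapped vehicle, with log2 fold changes of -0.090 ± 0.14, 0.19 ± 0.14 and 0.11 ± 0.14 (adjusted p = 0.843, 0.464 and 0.728). Foxm1, which drives the transcription of many genes of this set, had 28.1, 34.4 and 34.03 CPM in MBQ-167 tumours, 25.4, 34.1 and 36.2 CPM in paclitaxel tumours and 32.8, 34.3 and 31.8 CPM in combination tumours, against 34.8, 29.3 and 36.9 CPM in vehicle tumours. Its log2 fold changes were -0.065 ± 0.15, -0.080 ± 0.15 and -0.031 ± 0.15.

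**Figure D3:**
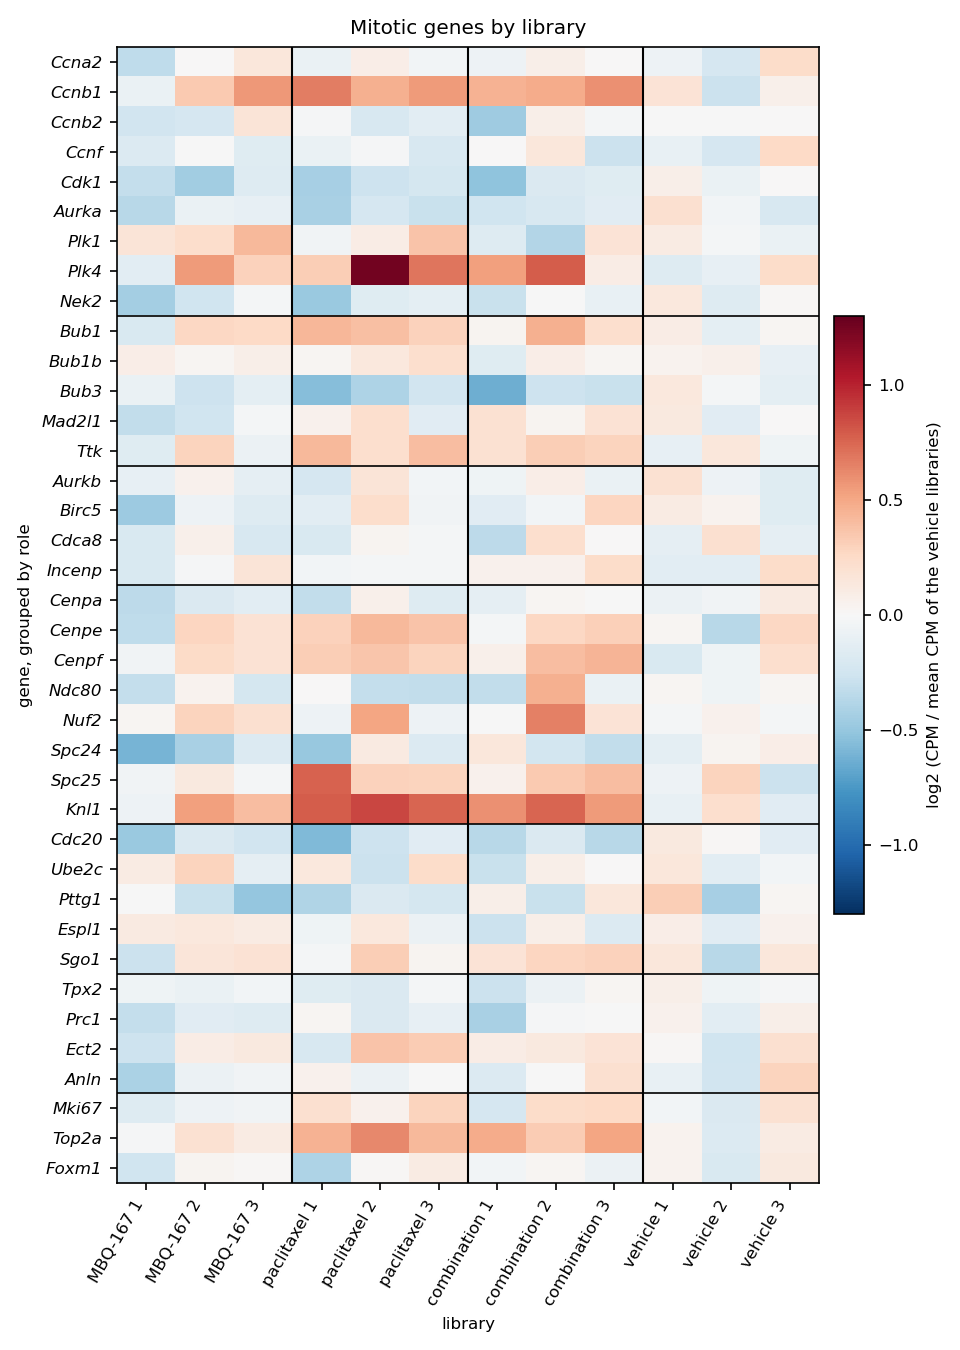
Level of each of the 38 genes in each of the 12 libraries, as the log2 ratio of its CPM to the mean CPM of the vehicle libraries. Rows are genes grouped by role, columns are libraries, red is above and blue below the vehicle mean. Knl1, Top2a and Ccnb1 are red in all paclitaxel and combination columns, Cdk1 and Cdc20 are blue in all drug columns, and the columns of MBQ-167 1 and combination 1 hold more blue than the others of their groups.

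Adding 1 drug to the other moved no member past the threshold. In the combination against MBQ-167, 0 of 38 members and 0% of all genes passed by edgeR, 0 members passed by DESeq2 or limma voom, and unadjusted 3 members were higher and 1 lower, where 2.95% and 2.20% of all genes were. The members' median log2 fold change was 0.12 and 30 of 38 were positive, while over all genes the median was 0.0069. Leaving out 1 library moved the members' median to 0.027 without combination 2, 0.038 without MBQ-167 1, 0.18 without MBQ-167 3, 0.19 without MBQ-167 2 and 0.20 without combination 1. Top2a had the largest difference, 0.34 ± 0.12 (adjusted p = 0.879), with no overlap between the groups. Mad2l1 followed at 0.34 ± 0.15 and Knl1 at 0.32 ± 0.15, both with an adjusted p of 0.937, and likewise without overlap. Cenpa was the 1 other member higher without overlap, so that 4 members were higher and 1 lower in this way, where 6.59% and 5.92% of all genes were. Below 0 were Plk1, at -0.38 ± 0.16, Espl1, at -0.24 ± 0.13, and Bub3, at -0.23 ± 0.13, and of these Espl1 alone had no overlap. In the combination against paclitaxel, 0 of 38 members and 0% of all genes passed by edgeR, 0 members passed by DESeq2 or limma voom, and 0 had an unadjusted p under 0.05 in either direction, where 1.19% of all genes were higher and 1.17% lower. The median was 0.012, against -0.0004 over all genes. The members with the smallest p were Ndc80, at 0.26 ± 0.20, Pttg1, at 0.26 ± 0.21, and Incenp, at 0.15 ± 0.13, among those higher, and Plk1, at -0.25 ± 0.16, Bub1b, at -0.14 ± 0.11, and Knl1, at -0.17 ± 0.15, among those lower. Libraries did not overlap for 1 member higher, Incenp, and 1 lower, Knl1, where 3.45% and 3.82% of all genes did not. For all 38 members the 95% interval of both comparisons lay within a 2-fold change.

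The interaction asks whether the log2 effects of the drugs add up in the combination. Among the members 0 of 38 passed, where 0.0603% of all genes did (0.0438% above 0 and 0.0164% below), by DESeq2 and limma voom the count was also 0, and the median was 0.079. Unadjusted, 2 were below 0, Plk1 at -0.53 ± 0.23 (adjusted p = 0.470) and Knl1 at -0.48 ± 0.21 (adjusted p = 0.483), and 0 were above, where 4.85% and 4.98% of all genes were. The log2 fold changes of Plk1 against vehicle were 0.28 with MBQ-167, 0.15 with paclitaxel and -0.10 with the combination, and the interval of its interaction ran from -1.02 to -0.040. In the mean of the drug groups against vehicle, which uses 9 libraries against 3 and shares its libraries with the comparisons above, 2 of 38 members rose and 0 fell, where 2.86% of all genes rose and 3.46% fell (6.32% in all). These were Knl1, at 0.58 ± 0.13 (adjusted p = 0.0172), and Top2a, at 0.35 ± 0.10 (adjusted p = 0.0463). Knl1 was not called without vehicle 1 or vehicle 3, and Top2a was called without vehicle 3 alone and with none of the other 11 libraries left out. Bub3, Ccnb1 and Cdk1 followed at -0.31 ± 0.10, 0.45 ± 0.15 and -0.30 ± 0.10, with adjusted p of 0.0856 to 0.0909. All 9 libraries stood apart from vehicle for 0 members higher and 1 lower, Cdk1, where 3.42% and 3.95% of all genes did.

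Members with GC-poor transcripts had higher log2 fold changes than those with GC-rich ones. Across the 38 members, the Spearman correlation between GC content and log2 fold change was -0.28 with MBQ-167, -0.53 with paclitaxel and -0.72 with the combination, against -0.20, -0.40 and -0.34 over the 18144 genes with a GC value. These describe transcripts of the same libraries, which share every technical property of their library, and the comparisons share the vehicle libraries. Of the 19 members with the lower GC content, 17 were above vehicle in combination tumours, with a median of 0.25, and of the 19 with the higher GC content 2 were, with a median of -0.10. In paclitaxel tumours these counts were 14 and 5, with medians of 0.19 and -0.10. In a fit with each library corrected for GC content, the members' correlations were 0.13, 0.11 and -0.052, and their medians were -0.10, -0.058 and -0.036, while the medians of all genes were -0.040, -0.046 and -0.043. No member passed the test against vehicle in that fit. The correction took the calls over all genes to 130 higher and 292 lower under paclitaxel, where the fit without it called 578 and 455, and to 12 and 63 under the combination, where it called 188 and 148. The GC balance of the libraries moved with treatment, and the parts of the 2 in the values of Knl1 and Top2a cannot be told apart.

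**Figure D4:**
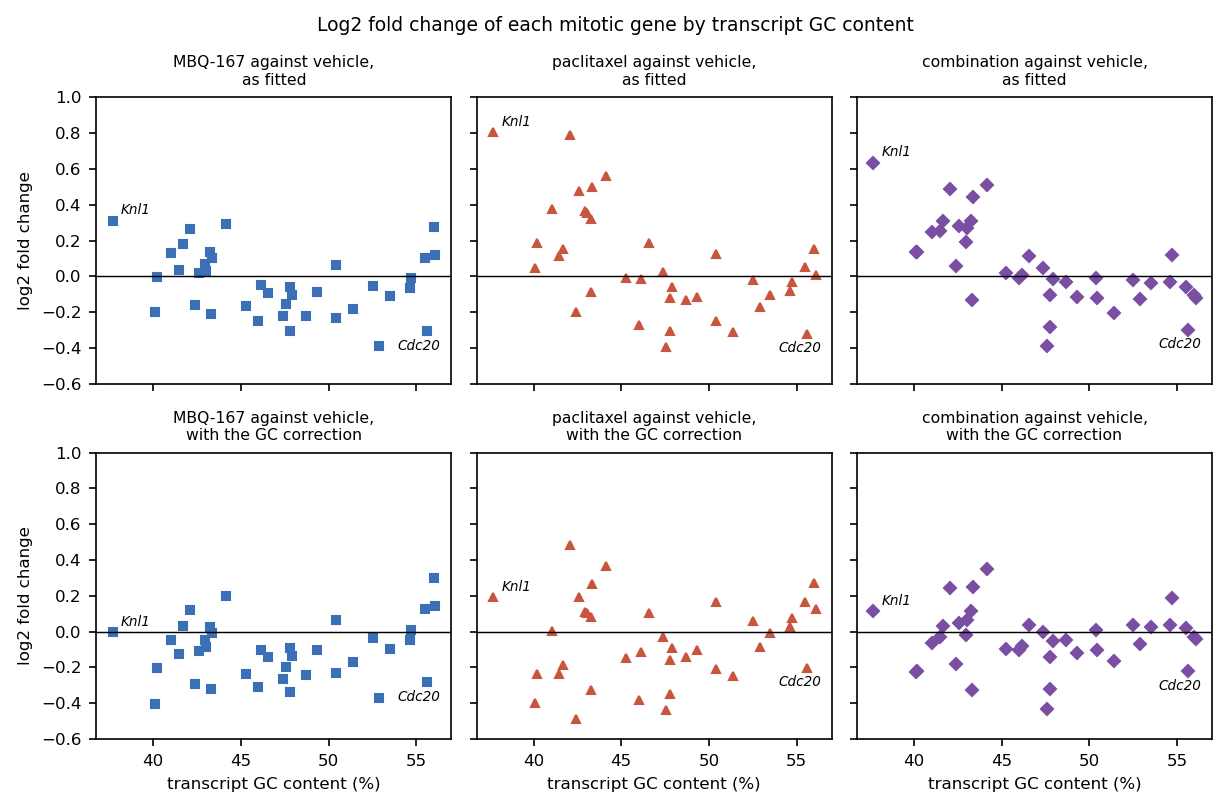
Log2 fold change of each of the 38 genes against the GC content of its transcript, for the 3 comparisons with vehicle, as fitted (top) and with each library corrected for GC content (bottom). Points are genes, with Knl1 and Cdc20 named. In the top row the paclitaxel and combination points fall with rising GC content (Spearman -0.53 and -0.72), and in the bottom row they do not (0.11 and -0.052).

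Single libraries stood out across the set. MBQ-167 1 was the lowest of its group for 29 of 38 members and combination 1 for 28, where each was the lowest for 34.1% and 34.6% of all genes. Vehicle 2 was the lowest of its group for 22 members and paclitaxel 1 for 21, against 33.1% and 30.2% of all genes. The members' CPM summed to 1638 ± 132 with MBQ-167, 1853 ± 58.7 with paclitaxel and 1818 ± 132 with the combination, and to 1677 ± 134 in vehicle tumours (SD, n = 3 each). Compared with other genes the members varied little: their median biological coefficient of variation was 0.139, against 0.197 over all genes, and 37 of 38 lay below that median. Their median level of 24.9 CPM was higher than that of all genes, 10.8 CPM, and low counts widen this measure.

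Levels were compared between genes as CPM per kilobase of exon, with the length taken over all annotated exons of a gene together. The lengths of the transcripts present in the tumours were not measured, and the order depends on the length used. Mad2l1, at 16.8 CPM over 8390 bases, stood at 2.01, while Pttg1, at 11.0 CPM over 2000 bases, stood at 5.48. Top2a was highest at 38.4, followed by Mki67 at 21.4, Cdc20 at 18.3, Ccna2 at 18.0, Ccnb2 at 16.4 and Anln at 14.3, as means over the 12 libraries. Plk4 was lowest at 0.415, and Ndc80, Mad2l1 and Nuf2 came next at 2.00, 2.01 and 2.07. The subunits of the Ndc80 complex stood at 2.00 for Ndc80, 2.07 for Nuf2, 2.78 for Spc25 and 3.52 for Spc24, and each overlapped the next between libraries. Aurkb, Incenp and Birc5 of the passenger complex stood at 9.33, 8.74 and 7.19, while Cdca8, with the longest exon length of these (5177 bases), stood at 2.99. Without division by length, their means were 27.5, 37.8 and 24.5 CPM, and that of Cdca8 was 15.5 CPM. Of the 37 pairs of neighbours in the order, 35 overlapped between libraries, and the steps below Top2a and above Plk4 were the 2 that did not.

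**Figure D5:**
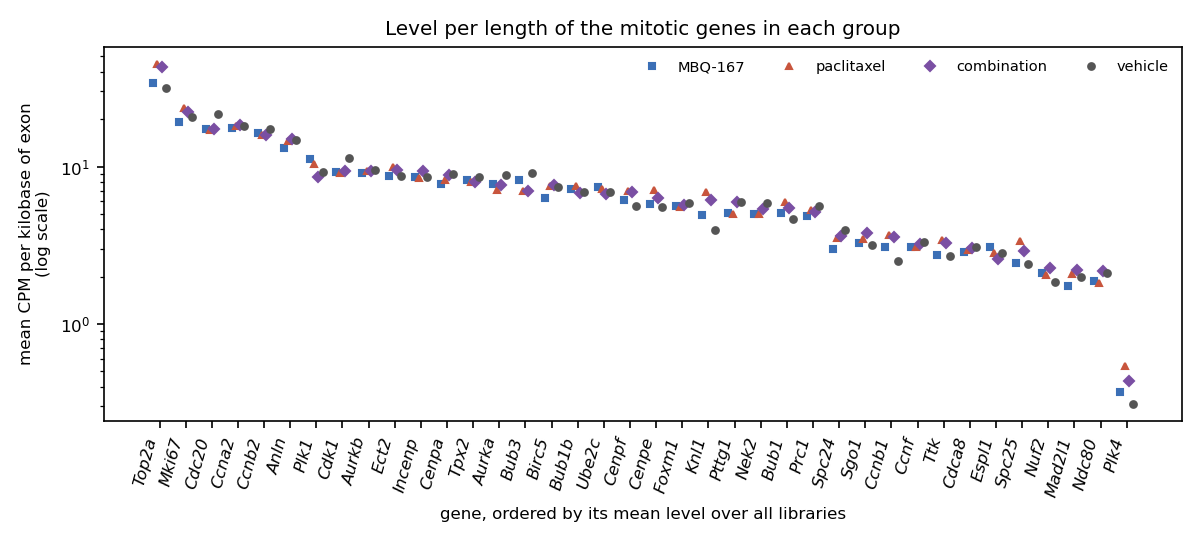
Mean CPM per kilobase of exon of each of the 38 genes in the MBQ-167, paclitaxel, combination and vehicle groups (n = 3 libraries each), on a log scale, ordered by the mean over all libraries. Top2a is highest and Plk4 lowest in each group, and the group means of most genes lie close together.

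Other genes of the same machinery were read from 8 lists. Of their 164 tested genes, 8 rose and 5 fell with paclitaxel, 2 rose and 1 fell with the combination, and 0 passed with MBQ-167, by edgeR. Over all genes, 3.17% rose and 2.49% fell with paclitaxel, 1.03% and 0.811% with the combination and 0.0164% and 0.0767% with MBQ-167, against which the counts of each list are to be read. At an unadjusted p under 0.05, 6 list genes were higher and 10 lower with MBQ-167 (5.82% and 7.05% of all genes), 34 and 17 with paclitaxel (11.4% and 11.2%) and 19 and 9 with the combination (9.54% and 8.81%). Of 29 inner centromere and other kinetochore genes, 3 rose and 0 fell with paclitaxel, and the median log2 fold change was 0.22. Among them were Cenpi, of the network of proteins on the centromere, at 0.99 ± 0.18, and Ska2, which helps hold microtubules, at 0.77 ± 0.16 (log2 ± SE, adjusted p = 0.0107 and 0.0142). Cenpi averaged 12.7 ± 0.469 CPM in paclitaxel and 6.38 ± 0.717 CPM in vehicle tumours (SD, n = 3 each) and also rose in combination tumours, at 0.84 ± 0.18 (adjusted p = 0.0388). The paclitaxel call of Cenpi held without any 1 of the 6 paclitaxel and vehicle libraries, and its combination call held without vehicle 3 alone. Of 12 mitotic kinesins, 2 rose and 0 fell with paclitaxel, with a median of 0.11. They were Kif20b, a motor of late division, at 0.77 ± 0.16, and Kif11, the motor that pushes the spindle poles apart, at 0.55 ± 0.14 (adjusted p = 0.0142 and 0.0383). Kif20b rose in combination tumours as well, at 0.75 ± 0.16 (adjusted p = 0.0332). Of 18 condensin and cohesin genes, Pds5b, a regulator of cohesin, rose with paclitaxel at 0.46 ± 0.12 (adjusted p = 0.0340), and the median was 0.24.

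Of 17 genes of the anaphase-promoting complex and its regulators, 1 rose and 2 fell with paclitaxel. Anapc10, a small subunit that helps bind substrates, rose, at 0.87 ± 0.21, while Anapc2, of the catalytic core, was at -0.51 ± 0.12 and Anapc7, of the scaffold arm, at -0.52 ± 0.12 (adjusted p = 0.0284, 0.0285 and 0.0284). The list's median was -0.14. Of 16 tested CDK inhibitors and growth arrest genes, 1 rose and 3 fell with paclitaxel, with a median of -0.22. Cdkn1a, which encodes the Cdk inhibitor p21, fell, at -0.52 ± 0.14 (adjusted p = 0.0413), and averaged 23.8 ± 2.53 CPM in paclitaxel and 34.2 ± 2.82 CPM in vehicle tumours (SD, n = 3 each). Gadd45b and Btg2, stress-induced genes that restrain growth, fell, at -0.68 ± 0.17 and -0.67 ± 0.17, and Ccng1, a target of p53, rose, at 0.46 ± 0.12 (adjusted p = 0.0300, 0.0334 and 0.0455). Btg2 also fell in combination tumours, at -0.87 ± 0.17 (adjusted p = 0.0278). In the mean of the drug groups against vehicle, 3 of the 164 list genes rose and 6 fell, where 2.86% of all genes rose and 3.46% fell. Those that rose were Cenpi, Ska2 and Kif20b, and those that fell were Anapc2, Anapc7, Cdkn1a, Cdkn2d, Gadd45b and Btg2. Their log2 fold changes ran from -0.77 for Btg2 to 0.71 for Cenpi. Among 27 genes of S phase and replication, 23 of the centrosome and spindle and 22 of the MuvB, E2F, pocket protein and NF-Y regulators, 0 passed in any comparison with vehicle, with paclitaxel medians of -0.081, 0.023 and 0.045. Unadjusted, 1, 5 and 6 of these were higher and 2, 1 and 0 lower with paclitaxel. The named list genes that rose with paclitaxel have transcripts of 39.3% to 42.2% GC and those that fell of 49.7% to 56.9%. With the GC correction, Btg2 in combination tumours was the 1 list call left in the comparisons of single groups with vehicle (adjusted p = 0.0454). In the mean of the drug groups, Anapc7, Gadd45b and Btg2 were still called (adjusted p = 0.0468, 0.0392 and 0.00887). The paclitaxel values were 0.65 for Cenpi, 0.29 for Kif20b, -0.42 for Cdkn1a and -0.65 for Btg2. Most of these calls also depended on single libraries. Of the 13 paclitaxel calls of these lists, that of Cenpi held without any 1 of the 6 paclitaxel and vehicle libraries. Those of Ska2 and Kif20b held without any 1 of 4 of the 6.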

How the data were processed

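Gene expression was measured by RNA-seq in 12 tumour libraries of polyA RNA, per the labels. The authors deposited raw counts of reads per gene, and per the submitters' processing notes HISAT2, HTSeq, DESeq2 and GRCm38 were used, with no versions. The annotation and the strandedness used in counting: not given in the sources used here. Gene names, lengths and GC content came from the GENCODE annotation on GRCm38, and promoters from RefSeq.

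Groups were taken from the labels. Counts were fitted with edgeR 4.0.16 (R 4.3.3) after TMM scaling: a quasi-likelihood fit over all 12 libraries and 4 groups with 8 residual degrees of freedom, for 18252 of 46078 genes kept by filterByExpr with a minimum count of 10. P-values were adjusted by Benjamini-Hochberg over all of them and called under 0.05. CPM used TMM library sizes. The common biological coefficient of variation was 0.214. Total counts of 11540557 to 17001562 limit the precision.

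The members and lists were chosen with earlier results of these data known. Values per library are given for 24 members: 18 fixed by name, those called, and in each comparison with vehicle and of the combination with a single drug the 3 with the smallest p in each direction. List genes are named where called, except for results not reported here. Alternatives were DESeq2 1.42.0, limma 3.58.1 voom, RLE size factors, other filters, protein-coding genes, the replicate number as a block, a GC correction by a spline of 5 degrees of freedom per library, the neutrophil level as a covariate, the compared groups alone, and leaving out each library. A library was left out only for comparisons that use its group.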

Additional observations from a re-analysis of the deposited data

How the results depend on the processing

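The count of members called was 0 in every alternative run for MBQ-167 against vehicle. With paclitaxel it was 2, against 0 with the GC correction, with the replicate block and GC correction together and with the neutrophil covariate, 1 with only the groups compared, and 1 to 2 when each library was left out. Ccnb1, not called by edgeR, was called with paclitaxel by DESeq2. With the combination the count of members was 1, against 2 by DESeq2 (Knl1 and Top2a), 0 by limma voom, with the GC correction, with block and GC correction, with the neutrophil covariate and with only the groups compared, and 0 to 1 when each library was left out. In the mean of the drug groups it was 2, against 1 without the low-count filter, 1 with the replicate block, 0 with the GC correction, with block and GC correction and with the neutrophil covariate, and 0 to 2 when each library was left out. The fit with the GC correction tested the 18144 genes with a GC value and removed GC-related differences. For none of the alternatives was the cause of a changed count tested. The median of the interaction was 0.079, against -0.041 with the neutrophil covariate. Of 3566 recomputed values of single genes, 3096 of them of members and 470 of called list genes, 188 had the other sign, none of them called in either fit. Of the values of members 42 lost a call and 2 gained one, of those of list genes 172 lost a call, and 0 changed sign with a call.

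Over all genes, DESeq2 called 118 higher and 207 lower with MBQ-167, 936 and 836 with paclitaxel, 485 and 473 with the combination and 79 and 74 in the interaction. Without the low-count filter the counts were 116 and 276 with MBQ-167 and 382 and 467 with the combination. The neutrophil covariate gave 109 and 78 with paclitaxel, 39 and 24 with the combination and 62 and 65 in the mean of the drug groups, where the GC correction gave 167 and 679 and the fit without it 522 and 631. With only the groups compared the counts were 0 and 5 with MBQ-167, 170 and 81 with paclitaxel and 1 and 6 with the combination. Leaving out each library gave 169 to 648 higher and 61 to 491 lower with paclitaxel.

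Libraries with the same number in different groups deviated together little, with correlations of -0.17 to 0.25 over 18 pairs. Of these pairs 7 were over 0.1 and the median was 0.017. Among 36 pairs with different numbers, 8 were over 0.1 and the median was -0.036. Of the 12 libraries, 5 correlated best with their own number. With 3 libraries a group, these values cannot decide whether the numbers pair the samples. With the replicate block the counts were 0, 2 and 1 for MBQ-167, paclitaxel and the combination against vehicle.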
